A study of Arabidopsis thaliana with 12 samples.

Results

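Among the genes measured in prpl11 and wild-type (WT) Arabidopsis thaliana, 27 gave bright probes whose mean intensity was nearly the same in both genotypes. They were chosen from the 691 genes that had a probe of their own, carried by 692 of the 3439 probes. A probe qualified with a deposited WT mean of at least 1.5 arbitrary units, a value above 0 on all 12 arrays, and a prpl11 mean less than 13% below and less than 15% above the WT mean. Those conditions used all 12 values, so every genotype comparison of these genes is a description and supports nothing. PSBW, PSB27 and NdhS met the conditions and were left out by name. LHB1B2, also left out by name, had a ratio of 1.26 and lay outside the window.

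The study set 6 arrays of the prpl11 mutant, which lacks PRPL11, the L11 protein of the plastid ribosome's large subunit, against 6 arrays of WT. Both genotypes were in the ecotype Columbia 0, and total RNA was hybridised. The labels name neither tissue, age, growth conditions nor the mutant allele. Nothing in them says that replicates 1 to 6 came from separate plants, so the p-values reflect array-to-array spread, part or all of which may be technical.

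Array sums lay between 3597 and 3660 in prpl11 and between 3611 and 3678 in WT, and the 27 probes together made up 2.17 to 2.61% of them in prpl11 and 2.18 to 2.54% in WT. Their sum was 79.1 to 94.2 per array in prpl11 and 79.9 to 92.1 in WT, and without the brightest gene it was 56.1 to 60.1 in prpl11 and 57.3 to 60.6 in WT. PRPL11 itself had no probe of its own, so the genotypes could not be checked against it. Of 10 marker genes for seed, flower, root hair and senescing leaf, 0 could be read from a single-gene probe, and among 9 green leaf markers only LHB1B2 could. In such bulk RNA, fewer cells of a type and less RNA per cell cannot be told apart.

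Plastid ribosomes make the plastid-encoded subunits of the photosynthetic complexes, while most plastid proteins are encoded in the nucleus and imported. Plastids that translate poorly send signals that alter transcription of nuclear genes, above all those of photosynthesis. Nuclear transcripts that keep their level in such a mutant are the backdrop for those changes. Intensity depends on the probe as well as on the amount of RNA, so the brightness of different probes does not order the amounts of their transcripts.

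The window held a similar share of bright probes whatever their annotation. Of the 52 single-gene probes with a WT mean of at least 1.5, 30 (57.7%) lay in it, against 41 of 71 probes with several listed genes (57.7%) and 118 of 209 with none (56.5%). Outside it, 7 of the 52 had a higher ratio and 15 a lower one.

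**Figure D1:**
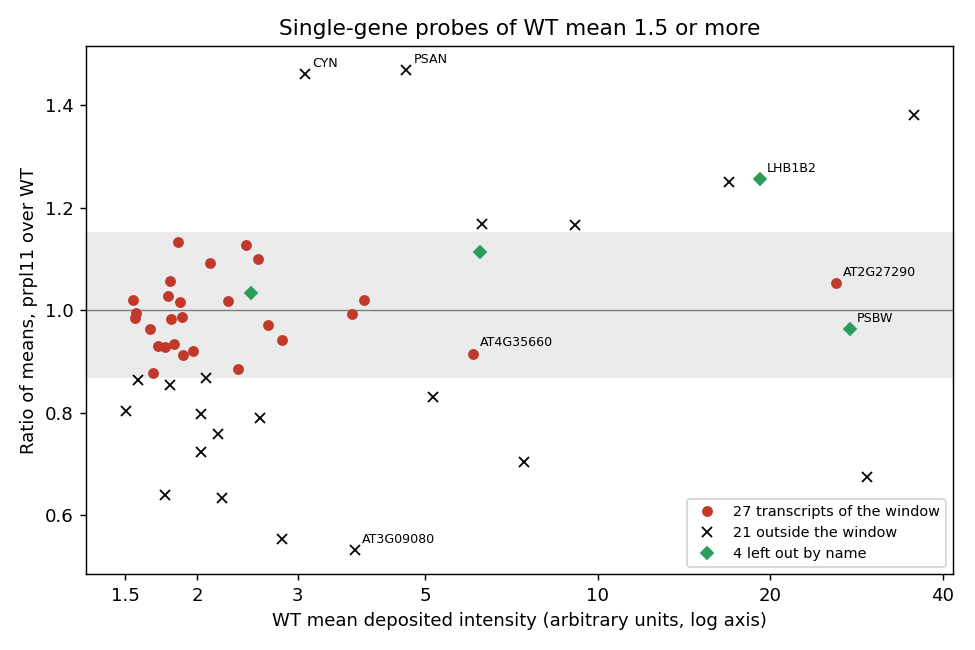
Ratio of the prpl11 mean to the WT mean (vertical axis) against the WT mean intensity (horizontal log axis, arbitrary units) for the 52 single-gene probes with a WT mean of at least 1.5, 1 point per probe. The grey band is the window, in which the 27 genes lie between 0.878 and 1.13, while CYN and PSAN lie above it at 1.46 and 1.47 and AT3G09080 below it at 0.532.

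The ends of the window cut through a continuous range. At the lower end AT3G06870 (0.878), AT2G46300 (0.885) and chr31 (0.913) lay just inside, while AT3G47650 (0.867), AT2G30100 (0.863) and AT5G33390 (0.854) lay just outside. At the upper end the ratios of AT4G39690 (1.13), AT4G27390 (1.13) and AT3G26630 (1.099) were inside, and those of AT1G62250 (1.165), CUTA (1.17) and AT4G17070 (21.2 in prpl11 over 16.97 in WT) outside. By WT mean, AT5G58330 (1.55), AT4G14050 (1.56) and DRT101 (1.56) were the dimmest inside, and ATSPS4F (1.498), AT1G55440 (1.46) and AT3G18870 (1.44) the brightest outside.

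In order of WT mean the 27 genes were AT2G27290, AT4G35660, AT2G33180, AT4G19900, AT3G13150, AT2G40980, AT3G26630, AT4G27390, AT2G46300, AT2G19280, AT4G32060, AT4G13680, chr31 (AT1G05490), AT4G00870, AT3G04210, AT4G39690, AT5G42680, AT2G37510, AT1G17160, AT1G35510, AT2G22890, AT2G35450, AT3G06870, AT1G44830, DRT101 (AT5G18070), AT4G14050 and AT5G58330. AT2G27290 stood far above the others, with a WT mean of 26.1 against 6.06 for AT4G35660. The next 9 lay between 2 and 4, and the remaining 16 below 2. For all probes the median of the WT means was 0.595.

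No function dominated the 27 genes, from which PSBW, PSB27 and NdhS had been left out by name although they met the conditions. The gene table named 3 of the 27 (chr31, DRT101 and AT5G58330), and for 14 others a protein type is given below as general knowledge of the locus, not as a result. The largest class was that of pentatricopeptide repeat (PPR) proteins, with 4 members, followed by 3 regulators of transcription and chromatin and pairs of mitochondrial membrane proteins, sugar-transferring enzymes and other enzymes of sugar metabolism. A further 4 genes stood alone in their class, and 10 are given no role. How common these classes are among all 691 genes was not examined.

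None of the lists of plastid and reference genes contributed a member. Of 121 genes listed for the photosystems, antenna, plastid electron transport, Calvin cycle, plastid ribosome, common reference genes and tissue markers, 13 were measured by a single-gene probe and 4 of these reached a WT mean of 1.5. These 4 were PSB27, PSBW and LHB1B2, left out by name, and PSAN, a photosystem I subunit with a ratio of 1.47. In the fit across all probes 1 of the 13 was called higher in prpl11 (PSAN), 1 lower (PRK, the phosphoribulokinase of the Calvin cycle) and 11 were not called. AT2G28390, a SAND-family gene used as a reference in expression studies, had a mean of 0.836 ± 0.075 in prpl11 and 0.829 ± 0.063 in WT (SD, n = 6 each), too dim to qualify.

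PPR proteins bind organellar RNA and serve in its editing, splicing and stability. AT3G13150 had a lowest, median and highest intensity of 2.22, 2.46 and 3.23 in prpl11 and 2.57, 2.74 and 3.16 in WT. For AT2G19280 the values were 2.12, 2.33 and 2.44 in prpl11 and 2.03, 2.24 and 2.46 in WT. Both sets of ranges overlapped, that of AT2G19280 over nearly their whole length. AT4G14050 had 1.26, 1.63 and 1.72 in prpl11, and 1.35, 1.64 and 1.69 in WT, again with wide overlap. AT3G26630 had 2.63, 2.81 and 2.98 in prpl11 and 2.38, 2.53 and 2.85 in WT. Of the 6 WT arrays of AT3G26630 only replicate 3, at 2.85, exceeded the prpl11 median.

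Several members belong to plastid and mitochondrial metabolism. AT5G58330 encodes the plastid NADP-dependent malate dehydrogenase, which turns oxaloacetate into malate and so exports reducing power from the chloroplast. It had a lowest, median and highest intensity of 1.31, 1.65 and 1.74 in prpl11 and 1.42, 1.57 and 1.64 in WT. AT1G17160, a kinase of the ribokinase type in the plastid, had 1.58, 1.901 and 2.22 in prpl11 and 1.63, 1.76 and 1.99 in WT. In both genes the prpl11 range enclosed the WT range. AT2G22890, a relative of a plastid lipid desaturase, had 1.01, 1.805 and 1.98 in prpl11 and 1.35, 1.82 and 2.05 in WT, so that its prpl11 range reached further down.

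Both genes of the class of mitochondrial membrane proteins had higher means in prpl11. AT4G32060, a calcium-binding regulator of calcium uptake into mitochondria, had 2.11, 2.32 and 2.48 in prpl11 and 2.03, 2.11 and 2.19 in WT. AT4G39690, of the protein type that shapes the inner mitochondrial membrane at the cristae, had 2.02, 2.09 and 2.24 in prpl11 and 1.57, 1.896 and 2.06 in WT. Of the 6 WT arrays of AT4G39690 only replicate 1 lay above the lowest prpl11 array.

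By deposited means the regulators had ratios from 0.913 to 0.986. chr31, a chromatin remodelling protein of the group that directs DNA methylation, had 1.65, 1.72 and 1.805 in prpl11 and 1.81, 1.83 and 2.05 in WT. It was the only one of the 27 whose deposited values did not overlap between the genotypes, where 4.83% of all probes tested did not overlap. After quantile normalization its log2 difference was -0.06 (limma adjusted p = 0.638), against -0.13 without normalization, and it was called in 0 of 24 alternatives. AT4G00870, a basic helix-loop-helix transcription factor of jasmonate responses, had 1.78, 1.85 and 1.97 in prpl11 and 1.77, 1.901 and 1.92 in WT. AT1G44830, an AP2/ERF transcription factor, had 1.42, 1.61 and 1.74 in prpl11 and 1.43, 1.67 and 1.802 in WT. AT3G04210, an immune receptor-like protein with a TIR and a nucleotide-binding domain, had 1.75, 1.88 and 2.14 in prpl11 and 1.75, 1.84 and 1.997 in WT. The ranges of these 3 overlapped over most of their length. AT1G44830 was nevertheless higher in prpl11 in 0 of 6 pairs of the same replicate number as deposited, and in 3 of 6 after quantile normalization. AT2G37510, a protein with an RNA-recognition motif, had 1.35, 1.94 and 2.06 in prpl11 and 1.53, 1.895 and 1.98 in WT, with replicates 5 and 6 low in both genotypes.

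Among the sugar-linked enzymes the ratios of the deposited means ran from 0.993 in AT4G19900 to 1.056 in AT1G17160, the plastid kinase described above. AT4G19900, a glycosyltransferase, had 3.28, 3.84 and 4.003 in prpl11 and 3.5, 3.77 and 3.94 in WT. AT1G35510, of the O-fucosyltransferase family, had 1.697, 1.83 and 1.97 in prpl11 and 1.48, 1.86 and 2.01 in WT. DRT101, related to the mutase of the pathway to UDP-N-acetylglucosamine, had 1.42, 1.59 and 1.67 in prpl11 and 1.45, 1.56 and 1.71 in WT. AT1G35510 and DRT101 had ratios of 1.03 and 0.995, and the ranges overlapped in all of them. After quantile normalization the log2 differences were 0.14 in AT4G19900, 0.17 in AT1G17160, 0.12 in AT1G35510 and 0.05 in DRT101.

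Among the genes given no role, the brightest moved far between replicate numbers in both genotypes. AT2G27290 had 24.2, 24.1, 34.9, 35.2, 23.2 and 22.9 on prpl11 replicates 1 to 6 and 23.5, 23.5, 31.7, 32.5, 22.4 and 22.7 on WT replicates 1 to 6. Replicates 3 and 4 were high in both genotypes, and on each replicate number prpl11 and WT differed by less than these replicates differed from the rest. AT4G35660 had 6.65, 6.18, 6.495, 6.13, 4.06 and 3.74 in prpl11 and 6.91, 6.27, 6.55, 6.22, 5.23 and 5.15 in WT. Its replicates 5 and 6 were low in both genotypes and lower in prpl11. As deposited, AT2G27290 was higher in prpl11 in 6 of 6 pairs of the same replicate number and AT4G35660 in 0 of 6. After quantile normalization they were higher in 3 and 4 of 6.

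The other 8 genes with no role had ratios from 0.878 to 1.13. AT2G33180 had a lowest, median and highest intensity of 3.58, 4.05 and 4.25 in prpl11 and 3.77, 3.86 and 4.12 in WT. AT2G40980 had 2.28, 2.66 and 2.79 in prpl11 and 2.42, 2.69 and 2.82 in WT. The prpl11 and WT ranges of both genes overlapped widely, but such ranges also take in the shifts between replicate numbers that both genotypes shared. AT2G40980 was higher in prpl11 in 0 of 6 pairs of the same replicate number as deposited, and in 5 of 6 after quantile normalization. AT4G27390 had 2.51, 2.64 and 3.07 in prpl11 and 2.25, 2.34 and 2.71 in WT, and AT2G46300 had 1.79, 2.14 and 2.31 in prpl11 and 2.104, 2.38 and 2.63 in WT. In AT4G27390 the prpl11 arrays lay towards the high side, in AT2G46300 towards the low side. AT4G13680 had 1.77, 1.81 and 1.86 in prpl11 and 1.803, 1.96 and 2.11 in WT, and AT5G42680 had 1.61, 1.71 and 1.79 in prpl11 and 1.75, 1.81 and 1.94 in WT. AT2G35450 had 1.24, 1.68 and 1.92 in prpl11 and 1.5, 1.64 and 1.997 in WT, and AT3G06870 had 1.296, 1.46 and 1.68 in prpl11 and 1.52, 1.71 and 1.85 in WT. Except in AT2G35450, the prpl11 median of these 4 genes was below the WT median. As deposited, prpl11 was higher in 6 of 6 same-number pairs in AT4G27390, and in 0 of 6 in AT2G46300, AT4G13680, AT5G42680 and AT3G06870. After quantile normalization prpl11 was higher in 6, 2, 2, 2 and 0 of 6 pairs in the same order.

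**Figure D2:**
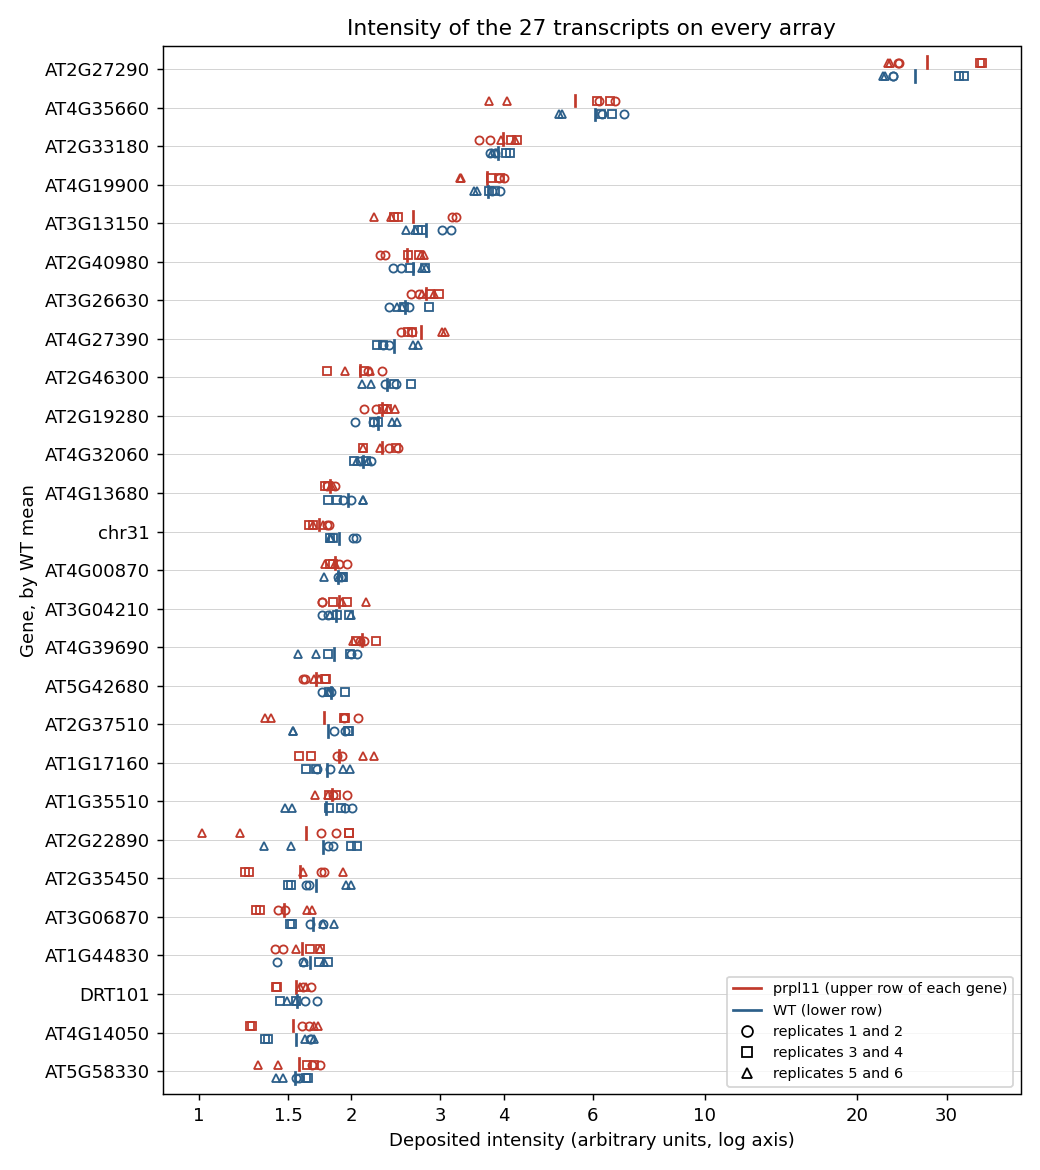
Deposited intensity (horizontal log axis, arbitrary units) of the 27 genes in order of WT mean, with the 6 prpl11 arrays in the upper row and the 6 WT arrays in the lower row of each gene; vertical bars are means and marker shapes give the replicate numbers. Rows overlap in 26 of 27 genes, and in AT2G27290 replicates 3 and 4 sit apart from the rest in both genotypes.

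How close the means were in prpl11 and WT was then described from the deposited values and from a fit across all probes. The ratio of the means ran from 0.878 to 1.13 with a median of 0.986, above 1 in 11 genes and below it in 16, and 12 genes lay within 5% of equal means. Closest to 1 were DRT101 (1.556 ± 0.11 in prpl11, 1.56 ± 0.093 in WT), AT4G19900 (3.702 ± 0.33 in prpl11, 3.73 ± 0.17 in WT) and AT4G00870 at 0.986 (1.857 ± 0.065 in prpl11, 1.88 ± 0.06 in WT; SD, n = 6 each). Their differences were below the SD of either genotype.

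In the fit (limma on quantile normalized log2 values, Benjamini-Hochberg over 3331 probes), 2 of the 27 passed the threshold of 0.05, against 5.52% of all probes. Both were higher in prpl11, where 2.46% of all probes were called higher and 3.06% lower. They were AT4G32060, with a log2 difference of 0.22 (SE 0.05; limma adjusted p = 0.0303), and AT3G26630, with 0.24 (SE 0.06; limma adjusted p = 0.0304). After normalization each was higher in prpl11 in 6 of 6 pairs of the same replicate number. In the deposited values AT3G26630 was higher in 6 of 6 pairs and AT4G32060 in 4 of 6. Without normalization their changes were 0.12 and 0.14 and neither passed (limma adjusted p = 0.276 and 0.201), and neither passed after median centring. Among single omissions AT4G32060 kept its call only without prpl11 replicate 3 or 5 or WT replicate 1 or 5, and AT3G26630 only without prpl11 replicate 1 or 2 or WT replicate 3. Over 24 alternatives the limma adjusted p of AT4G32060 lay between 0.0123 and 0.517 and that of AT3G26630 between 0.00598 and 0.538.

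The choice of scaling shifted the genotype difference of most of the 27. After quantile normalization the median log2 difference of the 27 was 0.05, against -0.02 without normalization and -0.01 after median centring. For all 332 probes with a WT mean of at least 1.5 it was 0.02, -0.05 and -0.04, and for all probes tested 0.01, -0.01 and 0.00 in the same order of scalings. After quantile normalization 19 of the 27 were higher in prpl11, without it 11 and after median centring 12. The sign of 8 genes depended on the scaling, AT4G35660 (0.01 against -0.16 without normalization) and AT4G19900 (0.14 against -0.01) moving most among them. AT2G27290, the brightest, shifted the other way, with 0.04 after quantile normalization and 0.07 without it.

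With the replicate number as a block, 8 of the 27 passed, 7 higher and 1 lower in prpl11, against 19.5% of all probes, 10.3% higher and 9.19% lower. Besides AT3G26630 and AT4G32060 these were AT4G27390 (0.28, limma adjusted p = 0.000735), AT4G39690 (0.26, 0.0123), AT2G33180 (0.15, 0.0151), AT2G19280 (0.12, 0.0183), AT1G17160 (0.17, 0.0378) and, lower, AT3G06870 (-0.13, 0.0363). When arrays of neighbouring numbers were first averaged into sets, with the set as a block, 7 of these 8 calls were lost. AT4G27390 kept its call (limma adjusted p = 0.0469), AT4G32060 and AT3G26630 had 0.0756 and 0.0773, and the other 5 had limma adjusted p from 0.135 to 0.243. After quantile normalization 10 of the 27 (37.0%) had differences of the same sign in all 6 pairs of the same replicate number, against 25.6% of all probes.

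A p that misses the threshold does not show equal levels, so the 95% interval of each difference is given. It lay wholly within 0.32 of 0 on the log2 scale for 19 of the 27, against 64.3% of all probes, and with the replicate block for 23, against 81.8%. Since the window selected on this difference, nothing is read from those counts. The median interval was 0.32 wide on the log2 scale among the 27 and 0.35 among all probes. AT4G00870 had the narrowest, from 0.987-fold to 1.13-fold, and AT2G22890 the widest, from 0.730-fold to 1.24-fold. Of the 8 intervals that reached past that limit, 6 did so upward, that of AT2G22890 downward and that of AT4G35660 both ways (0.793-fold to 1.28-fold).

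**Figure D3:**
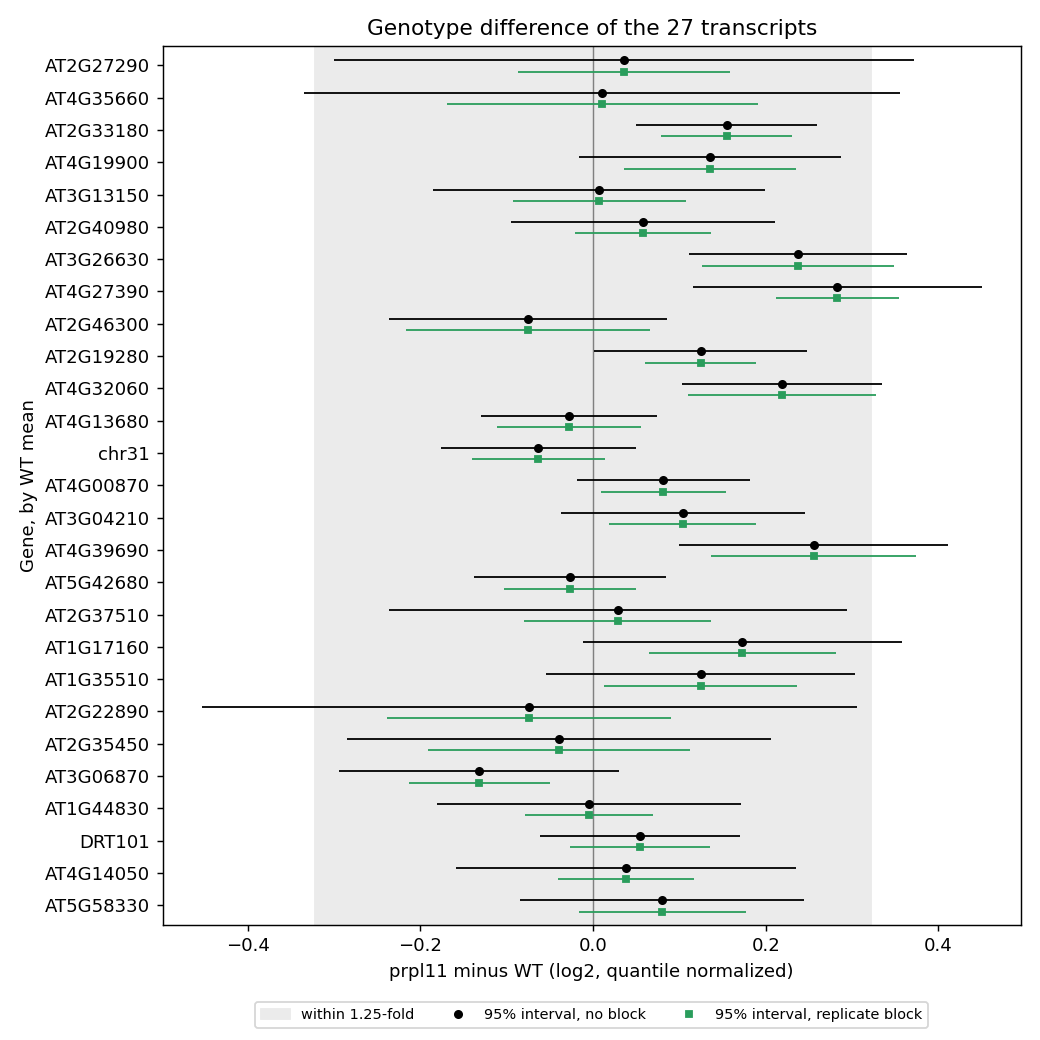
Difference of prpl11 minus WT on the log2 scale after quantile normalization (horizontal axis) for the 27 genes, with 95% intervals from the limma fit without a block (black circles) and with the replicate block (green squares). The grey band marks the limit of 0.32 on either side of 0, which holds 19 of the intervals without the block and 23 with it.

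Neighbouring replicate numbers went together, so the same genes were followed within 3 sets of 4 arrays: replicates 1 and 2, 3 and 4, and 5 and 6 of both genotypes. These sets come from the data and not from the labels, and what the arrays of a set share is not named there. Within a genotype the 27 genes differed by a median of 0.05 on the log2 scale between arrays of one set and 0.15 between arrays of different sets, and by 0.12 between prpl11 and WT arrays of the same number. Over all probes tested the medians were 0.08, 0.16 and 0.11.

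In a limma fit with genotype and replicate number, 15 of the 27 differed between replicate numbers, against 47.9% of all probes. AT2G27290 had the lowest limma adjusted p among them (0.00395), with a mean of 35.03 in prpl11 and 32.1 in WT for replicates 3 and 4, against 23.1 in prpl11 and 22.6 in WT for replicates 5 and 6. AT2G22890 had 1.98 in prpl11 and 2.03 in WT for replicates 3 and 4, but 1.11 in prpl11 and 1.44 in WT for replicates 5 and 6 (limma adjusted p = 0.00741). AT2G37510 had 1.94 in prpl11 and 1.98 in WT for replicates 3 and 4, and 1.37 in prpl11 and 1.54 in WT for replicates 5 and 6 (limma adjusted p = 0.00616). In these 3 genes the set with low values was the same in both genotypes.

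Within single sets the ratio of prpl11 to WT stayed in the window in most cases. Of 81 ratios, 3 for each gene, 72 lay in it, 7 below it and 2 above it. These ratios are made of the values that the window selected on, so many were bound to lie in it. Their number is a description, and the share among other bright probes was not taken. All 3 sets were in the window for 19 genes, 2 sets for 7 genes and 1 set for AT3G06870, which had 0.855, 0.858 and 0.918. AT4G35660 had ratios of 0.974 and 0.989 in the first sets and 0.752 in replicates 5 and 6, and AT2G22890 had 0.992, 0.979 and 0.773. AT4G39690 went the other way, with 1.04, 1.13 and 1.255, as did AT1G35510, with 0.963, 0.986 and 1.16. AT2G46300 left the window in replicates 3 and 4 (0.774) and so did AT2G35450 (0.825), while AT4G13680 fell just below it in replicates 5 and 6 (0.868). Set 3, replicates 5 and 6, held 5 of the 9 ratios outside the window.

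Whether the genotype difference changed between sets was tested as an interaction, a part of the data the ratio of the means does not use. In limma 0 of the 27 genes passed, against 0.66% of all probes (22 probes). At an unadjusted p under 0.05 there were 7 of 27 (25.9%), against 14.3% of all probes. With trended and robust variance 1 of the 27 passed. More of all probes passed there too than the 0.66% above, and their number is given in the last section. The 4 lowest p-values were those of AT4G35660, with set differences of 0.21, 0.08 and -0.26 on the log2 scale (limma adjusted p = 0.136), AT2G35450 with 0.16, -0.21 and -0.07 (0.235), AT2G37510 with 0.15, 0.04 and -0.11 (0.241) and AT2G22890 with 0.06, 0.04 and -0.33 (0.252). The residual in this fit comes from arrays of neighbouring numbers, which lay close together. Steadiest over the sets was AT2G19280, with 0.12, 0.13 and 0.12.

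**Figure D4:**
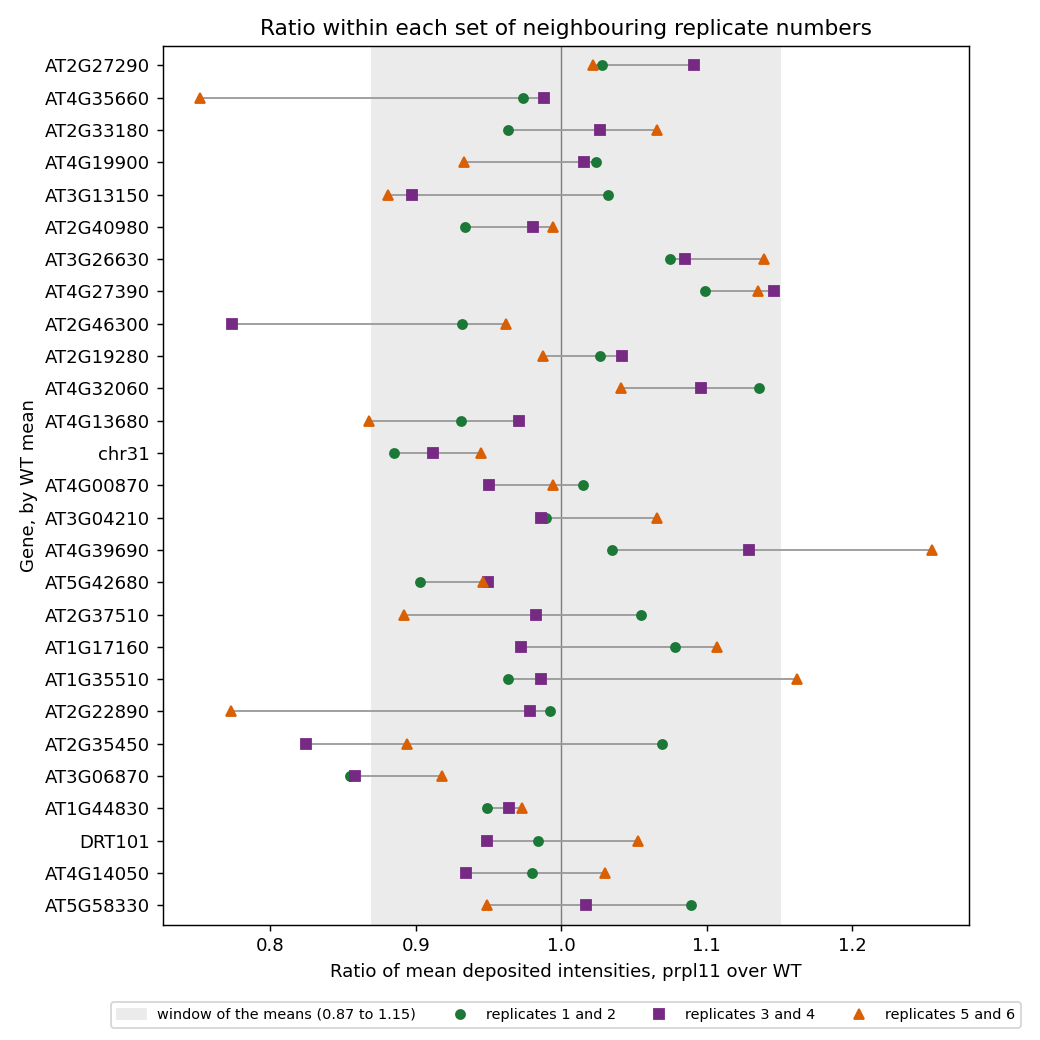
Ratio of mean deposited intensities, prpl11 over WT (horizontal axis), within replicates 1 and 2, 3 and 4, and 5 and 6 for the 27 genes, with a line from the lowest to the highest ratio of each. Of the 81 ratios 72 lie in the grey window, and those of AT4G35660 (0.752) and AT4G39690 (1.255) in replicates 5 and 6 lie farthest from it on either side.

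The spread of replicate arrays around their own genotype's mean, which the selection did not use, was about that of other bright probes. The median SD within genotype was 0.127 on the log2 scale for the 27 genes, 0.137 for the 21 bright single-gene probes outside the window, 0.134 for all 332 probes with a WT mean of at least 1.5 and 0.145 for all probes tested. The 27 are not replicates of each other and no test was made over them. Tightest were AT4G00870 (0.0559), AT4G13680 (0.059), AT2G33180 (0.0625) and AT5G42680 (0.0715). Loosest were AT2G22890 (0.338), AT4G35660 (0.306), AT2G27290 (0.298) and AT2G37510 (0.231), the genes that moved most between sets.

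Most of the 27 spread more widely in prpl11 than in WT. On the log2 scale 19 of 27 (70.4%) had a larger SD in prpl11 than in WT, against 70.2% of the 332 bright probes and 60.9% of all probes tested. In AT4G35660 the SD was 0.39 in prpl11 and 0.18 in WT, and in AT2G22890 0.42 in prpl11 and 0.23 in WT. In AT4G13680 it was smaller in prpl11, at 0.03 against 0.08 in WT, as in AT4G39690, at 0.06 in prpl11 against 0.16 in WT. The share among the 27 was that of bright probes in general.

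**Figure D5:**
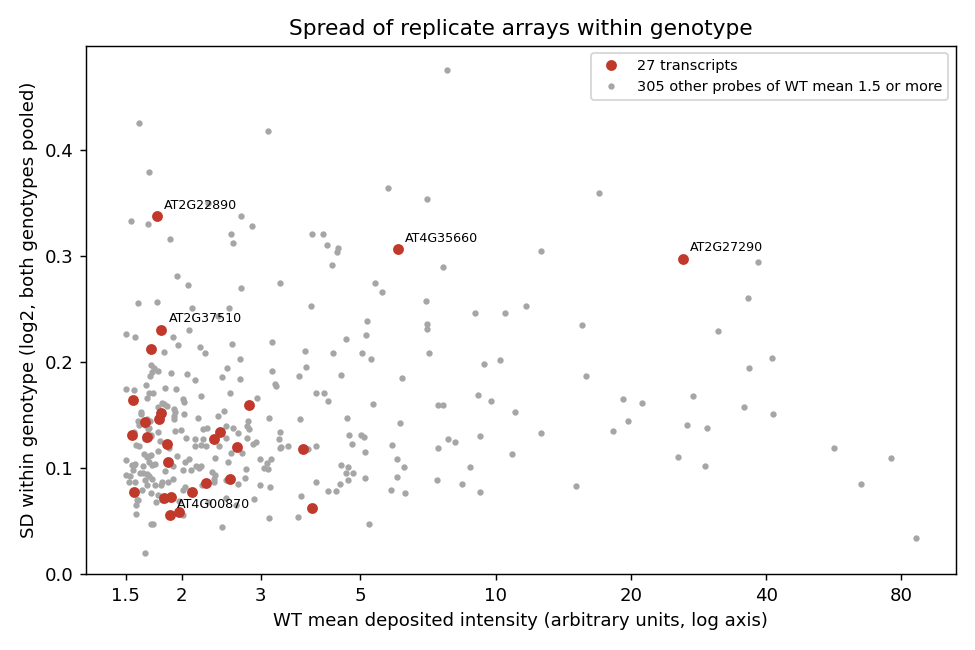
SD of replicate arrays within genotype on the log2 scale, pooled over prpl11 and WT (vertical axis), against WT mean intensity (horizontal log axis, arbitrary units) for the 27 genes (red) and the other probes with a WT mean of at least 1.5 (grey). The 27 run from 0.0559 in AT4G00870 to 0.338 in AT2G22890, within the cloud of the others.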

How the data were processed

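Each deposited value was a linear intensity of 1 probe on 1 array, and array sums were near-equal as deposited. The authors' scaling, background correction, scanner and array type: not given in the sources used here. Depth does not apply to arrays, and their number limits the precision. Genes were named from the probe table through the TAIR10.1 gene table, which held the genes of 690 of the 692 single-gene probes and of all 27 members.

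Zeros were replaced by the 1st percentile of all positive intensities (0.0583), log2 was taken and arrays were quantile normalized, since their log2 medians differed by 0.108. After removal of 108 probes that read 0 throughout, 3331 were tested with limma 3.58.1 (R 4.3.3; lmFit, eBayes, Benjamini-Hochberg, threshold 0.05, no block). Further limma fits tested replicate number and genotype by set. Intensities, their means, SDs and ratios are as deposited, log2 differences are normalized. Fits were tested on simulated data with independent noise on each array, which lacked the closeness of neighbouring replicate numbers seen here. Figures used matplotlib 3.10.9.

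Both genotypes use replicate numbers 1 to 6. Same-numbered arrays deviated together from their genotype means (correlation over probes 0.288 to 0.514, above 0.1 in all 6 pairs). The number was therefore also tried as a block, while the fit reported had no block and used no pairing. Arrays of neighbouring numbers lay close together too, so these correlations cannot tell pairing by number from sharing of a set. The labels state no pairing.

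Members and lists were chosen with earlier results of these data known. Values were given for all members; the 12 brightest, the 4 tightest, the 4 loosest, the genes nearest each threshold, called genes and the 4 lowest interaction p-values were named by rule. Promoter sequences were not used here. Alternatives covered normalization, zeros, variance, filter, block, averaging, a permutation test and omitted arrays.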

Additional observations from a re-analysis of the deposited data

Results flagged for a closer look

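Of 54 sets of 6 same-genotype values for the 27 genes, 2 contained a value set apart from its 5 neighbours. The cut-off used gives 1 in 20 by chance for independent values. Arrays of neighbouring numbers lay close together, so that rate need not hold here and nothing is read from the count. AT3G26630 was high in WT replicate 3, at 1.51 on the log2 scale where the other WT arrays averaged 1.27; the distance to the next array was 0.692 of the full spread. AT4G00870 was low in WT replicate 6, at 0.76 where the other WT arrays averaged 0.88, and here the distance was 0.665.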

How the results depend on the processing

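The number of members stayed between 27 and 30 when the conditions were applied without each array in turn, and fell to 11 with a WT mean of at least 2. Of the 3331 probes tested, 184 were called between prpl11 and WT, against 649 with the replicate block and 23 on set averages. On set averages with the set as a block 138 were called. Without normalization it was 181, with median centring 180, with a pseudocount of 0.236 207, and with trended and robust variance 193. With all 3439 probes included it was 214, and with only the probes above 0 on all arrays 190. Omission gave 111 without the arrays of set 1, 96 without those of set 2, 190 without those of set 3 and 142 to 179 without single arrays. Of the 27 genes 2 were called in the fit reported. It was 0 without normalization, with median centring, on set averages and without set 1. It was 1 on set averages with the set as a block and without set 2 or set 3. Only the probes above 0 on all arrays gave 3, with AT4G27390 added (limma adjusted p = 0.0484). It was 4 with trended and robust variance and with all probes included. A pseudocount of 0.236 gave 5, the replicate block 8, and omission of single arrays 0 to 2. At an unadjusted p under 0.05 limma gave 6 of the 27 in the fit reported (16.2% of all probes), 8 without normalization (16.1%), 6 with median centring (16.1%), 4 on set averages (7.11%) and 5 without set 1 (13.7%). The exact permutation test called 2 of the 27 after adjustment, and 160 of all probes (4.8%). Its 2 genes are not named here and need not be AT4G32060 and AT3G26630, so nothing is read from the equal count. The omission of whole sets was chosen after seeing the data. Intervals within 0.32 on the log2 scale numbered 19, against 9 on set averages and 15 to 20 without single arrays. The median SD within genotype was 0.127 and 0.119 to 0.132 without single arrays. For the interaction 22 probes passed, against 38 without normalization, 36 with median centring, 48 with the pseudocount and 88 with trended and robust variance, where 1 of the 27 genes passed. The cause of these shifts was not tested, except that averaging and omission leave fewer arrays. No called gene among the 27 changed direction in the 24 alternatives run for each.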
